A study of Drosophila melanogaster with 2 samples.

Results

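The EGFR pathway genes described here are 9 listed Drosophila genes, all of them found among the 17683 genes of the Ensembl annotation of BDGP6.54, of which 13945 are protein-coding. They are the ligand genes spi and vn, the ligand-processing gene rho, the receptor gene Egfr, the small GTPase gene Ras85D, the ETS factor genes pnt and aop, and the inhibitor genes aos and sty. The genes were taken by name and not by a rule on measured values, but with earlier results of these data known. The assay was ChIP-seq of CG34376 carrying a C-terminal GFP, in a stably transgenic fly line, from whole embryos of both sexes aged 0 to 24 h. There was 1 group of 2 libraries, biological replicates 2 and 3, with no mutant, treatment or other stage to set them against. The labels name CG34376 as the antibody target, although a free-text line calls both libraries input controls; they are taken here as immunoprecipitated chromatin. Whole embryos mix all tissues and stages, so the cells in which a site was occupied are not known from these lists.

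In the EGFR pathway, the membrane protease Rhomboid, made by rho, cleaves the precursor of Spitz, the ligand made by spi, while Vein, made by vn, is a secreted neuregulin-like ligand that needs no such step. The receptor acts through Ras85D and a MAP kinase cascade on a pair of ETS-family transcription factors, the activator Pointed (pnt) and the repressor Anterior open, also called Yan (aop). Argos (aos), a secreted protein that binds Spitz, and Sprouty (sty), an intracellular inhibitor, restrain the signal. In embryos the pathway patterns the ventral ectoderm, the nervous system, the muscles and the tracheae.

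Candidate peaks were deposited by the authors in 3 lists of 30000, from replicate 2, replicate 3 and their pool. The thresholded list holds the 23.4% of pooled candidates with the highest signal, and the equally long top set of a replicate is used beside it. The signal is in the authors' own units, and the lowest thresholded peak has 163. Each gene was examined with 5 kb on each side, and summits were given ranks, with rank 1 as the highest signal. A replicate rank is that of the nearest summit in that replicate within 100 bp. A start with a thresholded summit at most 500 bp away is called occupied, and such summits are called promoter summits. Read depth is not used here, so the counting error of a single signal is unknown.

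The 9 windows held 141 pooled candidate summits, of which 34 were thresholded. That is 24.1% of them, against the 23.4% over all pooled candidates, so the members' share lay near the background. By gene, pnt and aop had 7 thresholded summits each, spi 5, Egfr and Ras85D 4 each, vn and sty 3 each, aos 1 and rho none. The order of the genes depended on the replicate. The top set of replicate 2 gave spi 8, aop 7, pnt 6, vn 3, Egfr 2 and rho none, and that of replicate 3 gave pnt 8, aop 7, spi and vn 5 each, Egfr 3 and rho 1. At least 1 thresholded summit thus lay in the window of 8 of the 9 members, against 60.2% of all protein-coding genes. The members' windows were longer, with a median of 32.3 kb against 12.2 kb over all protein-coding genes. Only part of the signal belonged to the members by position: 23 of the 34 summits lay within a member's body, and for 17 the nearest annotated start was the member's own. For the other 17 it was the start of a neighbouring or nested gene.

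**Figure D1:**
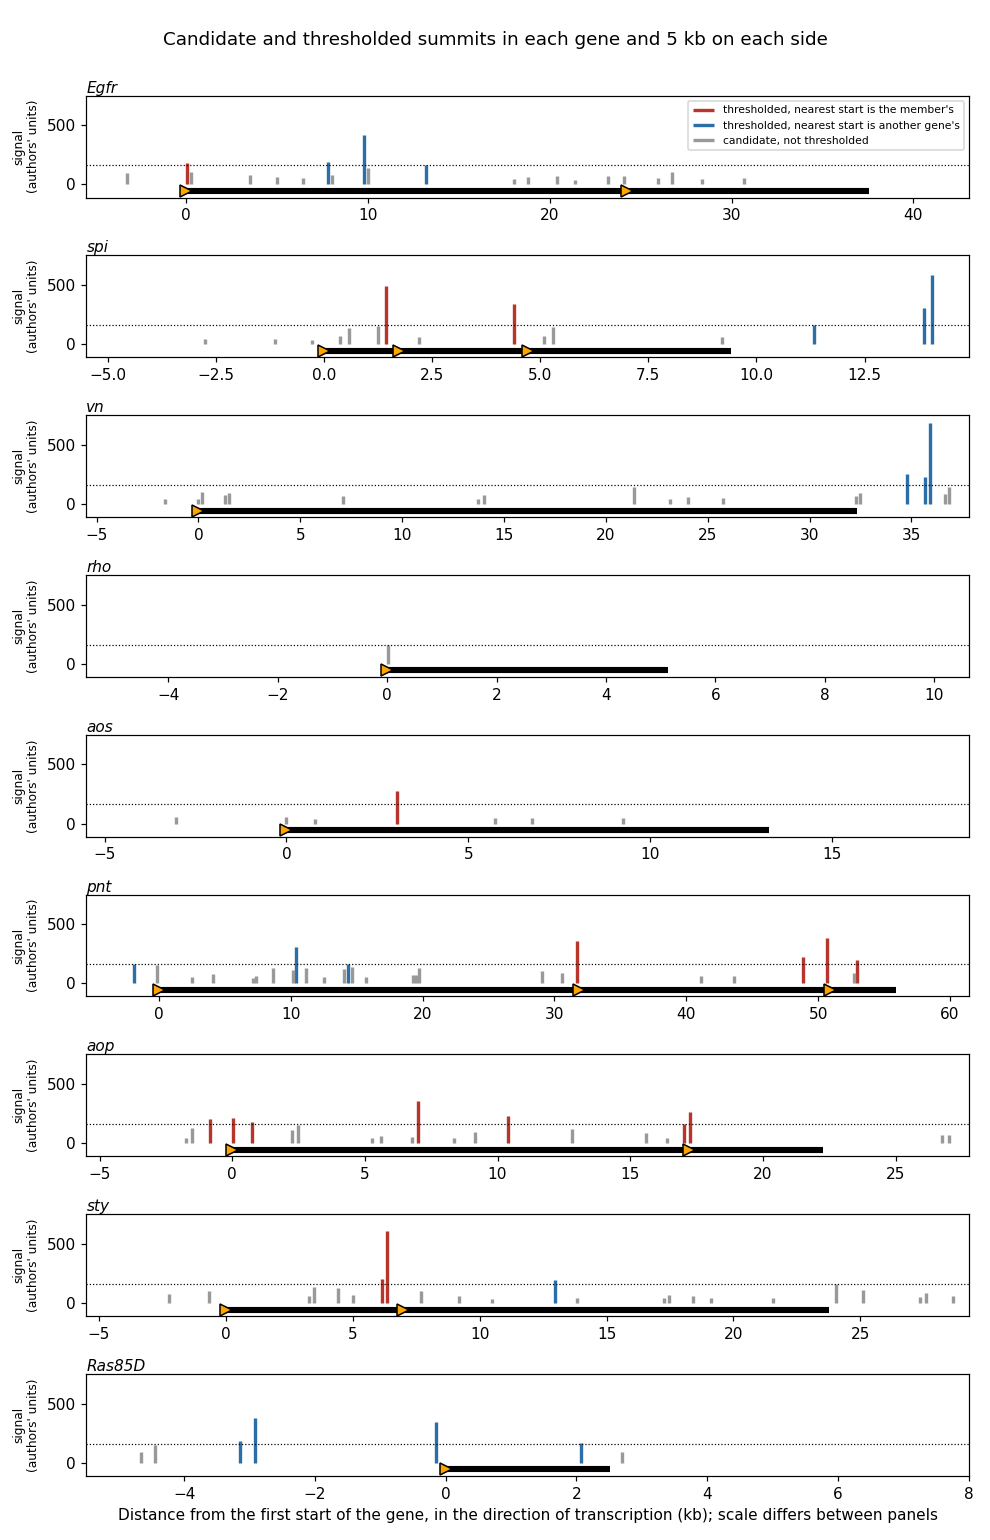
Signal of every pooled candidate summit (vertical axis, authors' units) against its distance from the first start of each gene in the direction of transcription (horizontal axis, kb). The black bar is the gene, triangles are annotated starts, the dotted line is the lower limit of the thresholded list, and colours separate thresholded summits nearest to the member's own start, those nearest to another gene's start, and candidates below the limit; the highest summit, of 685 in the window of vn, lies beyond the gene's end.

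The sequences below, of 101 bases each on the plus strand of dm6, are centred on thresholded summits at the members' own genes. They were chosen to show the strongest such site of spi, pnt, aop, sty, aos and Ras85D that is free of annotated UTR, with the other occupied start of spi and of pnt beside it. Capitals mark exact matches, on either strand, to the motifs searched, which are listed with the motif counts. The spi windows are chr2L:19575825-19575925 (start 2) and chr2L:19572878-19572978 (start 3), and those of pnt are chr3R:23314443-23314543 (start 2) and chr3R:23295486-23295586 (start 3). The others are chr2L:2171721-2171821 in an aop intron, chr3L:3418538-3418638 in a sty intron, chr3L:16480558-16480658 in an aos intron and chr3R:9513172-9513272 between Ras85D and Rlb1.
spi start 2: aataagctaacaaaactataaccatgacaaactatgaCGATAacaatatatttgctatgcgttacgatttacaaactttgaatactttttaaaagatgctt
spi start 3: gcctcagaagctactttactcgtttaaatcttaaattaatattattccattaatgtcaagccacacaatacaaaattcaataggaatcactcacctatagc
pnt start 2: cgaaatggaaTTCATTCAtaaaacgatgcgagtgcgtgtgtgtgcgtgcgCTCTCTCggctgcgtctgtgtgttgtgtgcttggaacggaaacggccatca
pnt start 3: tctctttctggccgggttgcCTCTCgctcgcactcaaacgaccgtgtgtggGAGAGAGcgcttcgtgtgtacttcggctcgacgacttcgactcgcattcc
aop intron: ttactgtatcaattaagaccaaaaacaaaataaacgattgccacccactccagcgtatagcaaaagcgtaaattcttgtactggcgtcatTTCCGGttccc
sty intron: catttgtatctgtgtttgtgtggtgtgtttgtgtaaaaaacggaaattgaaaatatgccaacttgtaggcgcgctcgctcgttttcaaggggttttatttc
aos intron: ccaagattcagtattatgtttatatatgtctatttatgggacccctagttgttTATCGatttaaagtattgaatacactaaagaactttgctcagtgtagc
Ras85D start: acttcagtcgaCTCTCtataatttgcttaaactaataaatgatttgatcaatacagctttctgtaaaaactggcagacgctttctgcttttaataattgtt

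Of the ligand genes, spi carried strong summits at its own starts. The gene spi (FBgn0005672) spans 19567900 to 19577315 on the minus strand of 2L and has 3 annotated starts. The summit at 19575875, 288 bp upstream of start 2, had a signal of 490 and rank 832, with rank 793 in replicate 2 and 818 in replicate 3. The summit at 19572928, 318 bp upstream of start 3, had a signal of 342 and rank 1900, with rank 1946 in replicate 2 and 2118 in replicate 3. Both replicates therefore put start 2 above start 3. Start 1, the farthest upstream, had no thresholded summit; its highest candidate, at 19576945, had a signal of 71.1, rank 10059 in replicate 2 and no match in replicate 3. The window held 3 further thresholded summits, all past the 3' end of spi, with signals of 584 and 310 upstream of CG13078 and 163 at the start of CG13077. The strongest summit in the window of spi, at 19563247, was thus 683 bp from a start of CG13078 and 9363 bp from the nearest spi start.

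Within vn, the other ligand gene, no candidate passed the threshold. It spans 5813338 to 5845664 on the minus strand of 3L (FBgn0003984) and had 11 pooled candidates in its body. The highest of these, in an intron at 5824267, had a signal of 144, with rank 11311 in replicate 2 and 6134 in replicate 3. At the single vn start the highest candidate had a signal of 106, with ranks 10644 in replicate 2 and 14653 in replicate 3. The 3 thresholded summits of the window lay in or at the 5' end of S6k, a kinase gene of the TOR growth pathway that lies beyond the 3' end of vn. They were at 5809771 with a signal of 685, the highest in any of the 9 windows (rank 392 in replicate 2 and 325 in replicate 3), at 5809974 with 228 and at 5810887 with 258.

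At rho (FBgn0004635; 1463811 to 1468944 on the plus strand of 3L), the window held 1 candidate in all. It lay 7 bp downstream of the start, at a position that is also within the overlapping gene Ptp61F. It had a signal of 159.7 and rank 7210, just below the limit of the list. Its rank was 9115 in replicate 2 and 6979 in replicate 3, so that it was in the top set of replicate 3 alone. The other candidates just below the limit in these windows were the first start of pnt with 159.9 and a site at 3400898 beyond the 3' end of sty with 159.9. Just inside it were the CG13077 summit with 163.0, an intronic pnt summit at 23331849 with 163.5 and the PolE1 summit upstream of pnt with 164.6.

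The receptor gene was occupied weakly at its first start and more strongly inside an intron. Egfr (FBgn0003731) lies on 2R, plus strand, between 21522420 and 21559977, with starts 24223 bp apart, each with 1 annotated transcript. The summit 47 bp downstream of start 1 had a signal of 179, with rank 4297 in replicate 2 and 8857 in replicate 3. The top set of replicate 3 had no summit within 500 bp of either Egfr start. Start 2 had a candidate with a signal of 74.8, unmatched in replicate 2 and at rank 11932 in replicate 3. The strongest summit in Egfr, at 21532215, had a signal of 414 and rank 1248, with rank 1308 in replicate 2 and 939 in replicate 3. It lay 20 bp upstream of the start of lncRNA:CR44725, a noncoding gene on the opposite strand inside Egfr, and 9795 bp downstream of start 1. Weaker intronic summits at 21530235 and 21535587, with signals of 194 and 168, ranked differently in the replicates: 7376 in replicate 2 and 3882 in replicate 3 for the first, and 13122 in replicate 2 and 3485 in replicate 3 for the second.

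The promoter of Ras85D was occupied at a site it shares with a divergent gene. Ras85D (FBgn0003205) spans 9510561 to 9513067 on the minus strand of 3R. The summit at 9513222, with a signal of 342, lay 155 bp upstream of the Ras85D start and 105 bp upstream of the start of Rlb1 on the plus strand. Its rank was 1894 in the pooled list, 2172 in replicate 2 and 1759 in replicate 3. If a summit is given only to the nearest start, this one goes to Rlb1. Inside Ras85D, a summit of 169 lay in the 3' UTR at 9510993, where the nearest start was that of rump, 669 bp away. The summits at 9515990 and 9516210, with signals of 376 and 189, lay within 500 bp of starts of CG8176, Kdm3 and mRpL47.

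Of the ETS factor genes, pnt was occupied at its downstream starts. The gene spans 23290231 to 23346167 on the minus strand of 3R (FBgn0003118) and is known to make a form that MAP kinase activates and a form that is active without it, from different starts. The summit at 23314493, 178 bp upstream of start 2 (transcript pnt-RD), had a signal of 363, with rank 1698 in replicate 2 and 1662 in replicate 3. The summit at 23295536, 298 bp upstream of start 3 (transcripts pnt-RC and pnt-RE), had a signal of 383, with rank 1467 in replicate 2 and 1747 in replicate 3. The replicates order these sites differently, so their signals do not differ beyond the replicates. Start 1 (pnt-RB) had a candidate 164 bp upstream with a signal of 159.9, at rank 5743 in replicate 2 and 9641 in replicate 3. Start 3 was flanked by intronic summits at 23293238, 2000 bp downstream with a signal of 199, and at 23297312, 2074 bp upstream with 226. Between starts 1 and 2, intronic summits of 304 at 23335785 and 163.5 at 23331849 lay 1982 and 1954 bp from the start of lncRNA:CR46090, and the second had no match in replicate 2.

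The repressor gene aop was occupied at both of its starts and between them. It spans 2156484 to 2178754 on the minus strand of 2L (FBgn0000097), and for all 7 thresholded summits of its window the nearest start was its own. Start 1 had a summit 19 bp downstream with a signal of 209 (rank 6262 in replicate 2 and 3542 in replicate 3), with neighbours of 208 at 856 bp upstream and 182 in the 5' UTR at 733 bp downstream. Start 2, 17227 bp away, had summits of 264 and 167, at 29 bp downstream and 188 bp upstream. The first of these had rank 4567 in replicate 2 and 2256 in replicate 3. The strongest aop summit was intronic, at 2171771, with a signal of 357, rank 1968 in replicate 2 and 1833 in replicate 3. It lay 6983 bp downstream of start 1. A further intronic summit at 2168375 had a signal of 227.

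The inhibitor genes had thresholded summits inside the gene but none within 500 bp of their own starts. In sty (FBgn0014388; 3401153 to 3424935 on the minus strand of 3L), the summit at 3418588 had a signal of 607, the highest of any summit inside a member. It lay 627 bp upstream of start 2, in an intron of the transcript from start 1, and ranked 707 in replicate 2 and 342 in replicate 3. A second summit on nearly the same interval, at 3418789, had a signal of 202. Another, at 3411970 with a signal of 191, lay within 500 bp of the start of mir-2282, a microRNA gene inside sty. Neither sty start had any candidate within 500 bp. In aos (FBgn0004569; 16470386 to 16483650 on the minus strand of 3L), a single thresholded summit, at 16480608, had a signal of 279, with rank 2674 in replicate 2 and 3323 in replicate 3. It lay 3042 bp downstream of the aos start, in an intron, at a position that is also within the overlapping gene CG33158. The 6 other candidates in the aos window had signals from 43.6 to 58.3, so the intronic summit stood apart from them.

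Counted by gene, 5 of the 9 members had an occupied start: Egfr, spi, pnt, aop and Ras85D. The share over all protein-coding genes was 30.1%. It depended on the number of starts, and 49.7% of protein-coding genes with 2 or more starts had an occupied one, against 23.0% of those with 1 start. Among the members, 4 of the 5 genes with 2 or more starts were occupied, and 1 of the 4 genes with 1 start. The highest promoter signal was 490 for spi, 383 for pnt, 342 for Ras85D, 264 for aop and 179 for Egfr. In both replicates spi, pnt and Ras85D took ranks in this order, whereas Egfr stood above aop in replicate 2 and below it in replicate 3. The same 5 genes were occupied in the top set of replicate 2. In that of replicate 3 the number was again 5, with rho in and Egfr out.

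Counted by start, 8 of the members' 16 starts were occupied, against 26.2% of all annotated starts. The top set of replicate 2 gave 9 of the 16 and that of replicate 3 gave 8. In the 5 members with several starts, 5 of 7 downstream starts were occupied and 2 of 5 first starts. Over all protein-coding genes with several starts, 33.8% of downstream starts and 39.3% of first starts were occupied. The downstream count was 5 in each replicate alone, but the count of first starts was 3 in replicate 2 and 1 in replicate 3. With so few starts this is a description of spi and pnt, which give 4 of the 5 occupied downstream starts.

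**Figure D2:**
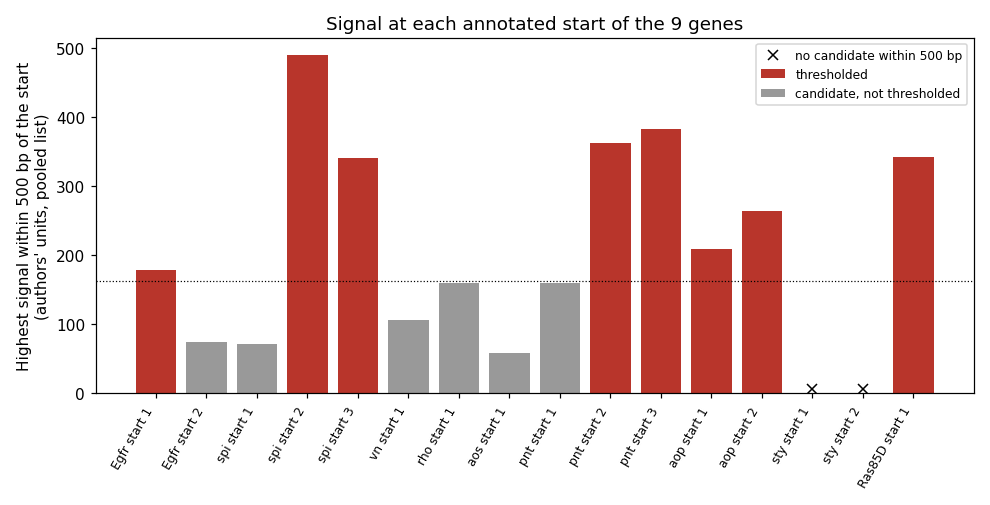
Highest signal of a pooled candidate within 500 bp of each annotated start (vertical axis, authors' units), with starts numbered in the direction of transcription. Red bars are thresholded, grey bars are candidates below the limit (dotted line) and crosses mark the sty starts with no candidate; spi start 2 was highest with 490, and the first start of pnt and the start of rho stood just below the limit.

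By position, the 34 thresholded summits were split between promoters and introns. Promoter summits, counting those at starts of other genes, were 17 of the 34, against 61.2% of the whole thresholded list. Introns held 13 (38.2%), against 29.2%. A further 2 were intergenic, 1 lay in a 5' UTR, 1 in a 3' UTR and none in a coding exon. Of the 9 summits within 500 bp of a member's own start, 6 lay upstream of it. The share over all promoter summits is not given here, so this count has no background. The members' summits had a median signal of 227, against 252 over the list, and 4 of them were among its 1000 highest. Per 10 kb of window, Ras85D had 3.20 thresholded summits, spi 2.58, aop 2.17, pnt 1.06, sty 0.888, Egfr 0.841, vn 0.709 and aos 0.430, and the median over all protein-coding genes was 0.765. These windows take in neighbours' sites: within the body alone the count was 1 for Ras85D, whose promoter summit lies outside it, 2 for spi and 0 for vn.

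Nearly all of the members' sites had a match in both replicates, and most were in the top set of both. Of the 34 summits, 33 had a match in both replicates, at a median of 18 bp in replicate 2 and 10 bp in replicate 3. A match by definition lay within the matching distance, so these medians are capped by it. The share of the whole thresholded list matched in both replicates is not given here, so the count of 33 has no background. For 25 (73.5%) the match was in the top set of both replicates, and the share over the whole thresholded list was also 73.5%. The thresholded list was drawn from these same libraries, so this is no independent check of them. The 9 that failed were 3 of the 4 Egfr summits, 2 of the 7 of pnt, and 1 each of spi, aop, sty and Ras85D. Apart from the site beside lncRNA:CR44725, the Egfr summits were thus the least reproducible of the members' sites by this count. All of the vn and aos summits passed.

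**Figure D3:**
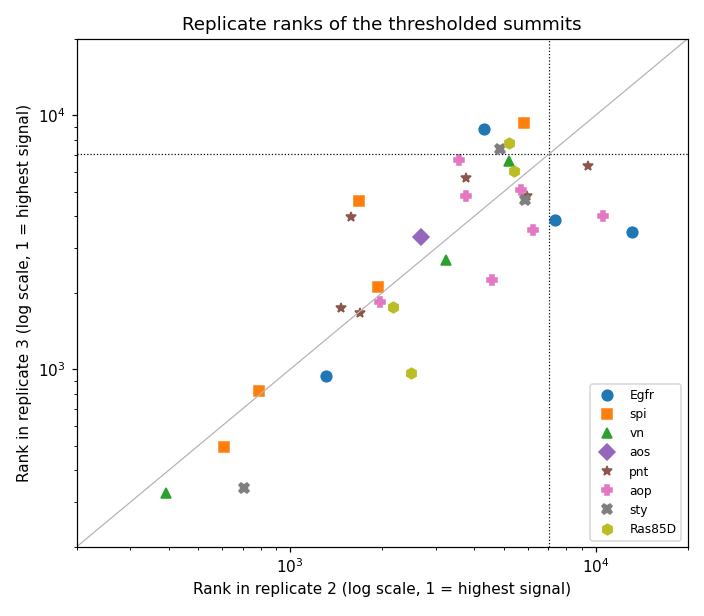
Rank in replicate 3 against rank in replicate 2, both on log axes, for the 33 thresholded summits matched in both replicates, with a symbol for each gene. Dotted lines mark the end of each replicate's top set and the grey line equal ranks. The strongest summits near S6k (in the vn window), in sty and in the window of spi lie at the strong end. Past a dotted line lie 3 of the 4 Egfr summits and some of other genes, among them 1 each of sty and spi.

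Sequence motifs were counted as exact letters on both strands within 100 bp of each summit. The letters were GATAAG for GATA factors, CGATA, TATCGATA for the DRE of core promoters, GAGAG for GAGA factor, CCGGAA for ETS factors, TGAATGAA for the repressor Capicua, CAGGTA for Zelda and TGACTCA for AP-1. CGATA lies within TATCGATA and can overlap GATAAG, and windows of close summits share bases. GATAAG was at 7 of the 34 members' summits (20.6%), against 25.4% of all thresholded summits. CGATA was at 13 (38.2%), against 38.0%, and GAGAG at 11 (32.4%), against 30.6%. CCGGAA was at 2 (5.88%), against 5.28%, once in pnt and once in aop, the ETS factor genes themselves. TGACTCA was at 2 (5.88%), against 2.68%, and TGAATGAA at 1 (2.94%), against 1.95%. The DRE and the Zelda core were at none, against 3.32% and 3.93% of all thresholded summits. All of these shares were close to the background or rest on at most 2 summits.

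The motifs were spread unevenly among the genes. GAGAG was at 4 of the 7 summits in the window of pnt, at 4 of the 7 of aop, and at none of those of Egfr, spi or aos. The 4 in the window of pnt were those whose nearest annotated start was that of pnt. In the printed sequence of pnt start 3, CTCTC stands before the centre and GAGAGAG just after it. CGATA was at 4 of the 5 summits in the window of spi, of which 1 is at a spi start, and at 4 of the 7 of aop. The match to TGAATGAA was at pnt start 2. These patterns were noticed after the counts were seen and were not tested.

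Of 29 other listed genes of the pathway, 14 had an occupied start (48.3%), against 30.1% of all protein-coding genes. A thresholded summit lay in the gene or 5 kb on each side for 22 of them (75.9%), against 60.2%. Of the 12 with several starts 9 were occupied, against 49.7% of all protein-coding genes with several starts, and of the 17 with 1 start 5, against 23.0%. Among adaptors and exchange factors 4 of 5 were occupied: Shc, an adaptor, with a signal of 1163 at a site nearer to the start of Atat, drk, the Grb2 adaptor, with 299, dos with 216 and csw, the phosphatase Corkscrew; the exchange factor gene Sos was not. The MAP kinase cascade gave 1 of 5, Raf with 194, while ksr, cnk, Dsor1 (MEK) and rl (ERK) had no thresholded summit at a start. The Raf summit had rank 3072 in replicate 2 and 14412 in replicate 3. That of csw had no match in replicate 2.

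Of the ligand genes, Krn, a Spitz-like ligand, had 358 and grk none. Of the genes for ligand processing, S, the Spitz chaperone Star, had 258 and stet, a rhomboid protease, 173, while ru, rho-4 and rho-6 were not occupied. Negative regulators gave 3 of 7, with Mkp3, a MAP kinase phosphatase, at 414, Cbl, a ubiquitin ligase, at 213 and vap, a Ras GTPase-activating protein, at 177. RasGAP1, Nf1, kek1 and PTP-ER had no occupied start. Nuclear factors gave 3 of 5: ttk, a repressor, with 207, cic, which encodes Capicua, with 204, and sina, a ubiquitin ligase, with 169. The starts of edl and phyl were not occupied. The Mkp3 summit ranked alike in the replicates, 1305 in replicate 2 and 1290 in replicate 3. That of sina had no match in replicate 2.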

How the data were processed

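ChIP-seq peak lists of 2 replicates on build dm6 were analysed. Per the deposited file listings, candidates were called for each replicate and for the pool against a shared control, and the thresholded peaks form the optimal set by irreproducible discovery rate (IDR). For the aligner and the peak caller, names are not given in the sources used. Column 7 of each deposited list is the signal in the authors' own units, and it was used only to rank and describe peaks within a list. Summits past the end of an interval (2 lines) were set to its last base.

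Genes and starts are those of Ensembl (BDGP6.54), with identifiers of FlyBase genes only; the spans of all 9 members were the same in RefSeq's annotation of Release 6. Summits over 500 bp from any start were classed by the first that held of 5' UTR, coding exon, 3' UTR and intron, and otherwise as intergenic. Sequences were read from the RefSeq Release 6 genome, and windows holding UTR, on an arm not printed, or outside the member and over 500 bp from its starts were left out, the last by a choice made after the values were seen. Motif windows were 201 bp. The genes named are the 9 members and genes whose start is nearest to a thresholded summit. Of the other pathway genes, the 3 highest of each role are named with values. The rest are named only as occupied or not, except csw, whose missing replicate match is also given. Further genes sharing a start region or overlapping a summit were named after their values were seen. The members, lists and motifs were chosen with earlier results of these data known. With 1 group there was no contrast and no test. The code was checked on made-up summits with known answers, with Python 3.11.15, pandas 2.3.3 and NumPy 2.4.6. Alternatives were each replicate alone, stricter lists, other distances and other flanks.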

Additional observations from a re-analysis of the deposited data

How the results depend on the processing

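Without replicate 2 or without replicate 3, from 24.8% to 25.7% of the candidates in the windows were in the top set of the replicate left, against 24.1% in the pool. The same share was 22.1% for gene bodies alone, 22.3% with 2 kb on each side and 26.8% with 10 kb, all near the background. These shares lie farther from 24.1% than the replicate SD of 0.630 (n = 2), but so does each replicate alone. That SD is of the replicate shares and does not measure the spread expected from changing the windows. In the stronger 50% of the list, by definition 50% of all thresholded peaks, the windows held 16 of the 34 summits. In the 1000 highest peaks they held 4, in 3 members (spi, vn and sty), with 1 occupied member (spi) and with the strongest site at a promoter in 0 members. That last count, which took promoters of any gene, was 3 of 8 in the whole list and 5 when promoters reached 1000 bp. Fewer peaks are counted among the 1000 highest, and more positions within 1000 bp. In the whole list the 3 were pnt at its own start, Egfr at that of lncRNA:CR44725 and Ras85D at that of CG8176. The number of occupied members ranged from 4 to 6 over the other distances, assignments and the stronger 50% of the list: sty was added within 1000 bp or by any base of the interval, spi was lost within 200 bp, Egfr in that stronger part and Ras85D by nearest start only. Matching replicates within 50 bp, a distance chosen after seeing the data, left 19 of the 34 summits in the top set of both. Matching within 250 bp left 25. Shares of the whole list at these distances are not given here, so neither count has a background. No paired analysis was possible because there is 1 group. Occupancy over mixed embryos and the unknown depth limit what a missing summit shows.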

Other observations

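The candidates below the threshold in the windows, 107 in all, were mostly intronic (66), with 24 at promoters of any gene. The shares over all pooled candidates below the threshold are not given here, so these counts and those by gene have no background. In the window of pnt, 18 of the 20 such candidates lay in introns. Their signals reached 139.9 at 23331516, where the ranks were 17291 in replicate 2 and 4842 in replicate 3. In aop the highest was an intronic site at 2176286 with a signal of 157.9, which ranked 6157 in replicate 2 and had no match in replicate 3. In sty an intronic site at 3421478 with 133 likewise had rank 7963 in replicate 2 and no match in replicate 3. At spi the highest lay at 19576078, 491 bp upstream of start 2, with 157 and ranks of 6478 in replicate 2 and 7171 in replicate 3.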
